A study of Mus musculus with 28 samples.

Results

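The comparison described here sets resting skin of mice lacking VISTA in all cells (KO) against resting skin of wild-type littermates (WT). It takes in 6 of the 28 RNA-seq libraries of the series, chosen by their titles: 3 from Vsir-/- mice and 3 from WT mice, none of them exposed to ultraviolet light. All were from 12-week-old females whose hair was shaved and removed with depilatory cream 5 days before. The labels do not give the strain, name no individual animal and call the libraries biological replicates. The p-values rest on the spread between libraries within groups, pooled over the 12 whole-body libraries that were fitted together. Another 22 libraries belong to skin after 500 mJ/cm² of ultraviolet B (UVB) and to mice with floxed Vsir, with K14Cre (cKO, in which the keratin 14 promoter directs deletion to keratinocytes) or without Cre (FL). They are used where the same genes are set beside them, and the KO and WT libraries after UVB also enter the estimate of the spread. All 6 libraries carry 1 batch label.

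VISTA, the product of Vsir, is an immunoglobulin-domain protein of the B7 family that sits mainly on myeloid cells and T cells and restrains T cell activation. It differs from PD-1 and CTLA-4 in being present on resting cells, so that its loss can be looked at in skin that has not been challenged. Skin holds keratinocytes that renew the epidermis and build its cornified barrier, a dermis with fibroblasts, vessels and resident macrophages, Langerhans cells and T cells within the epidermis, and a thin skeletal muscle layer. Interferons, made by T cells and other immune cells, act on all of these cells and induce GTPases that attack pathogen vacuoles, antigen-presenting MHC class I molecules and T cell-attracting chemokines.

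Total counts were 36.8, 38.34 and 34.36 M in the KO libraries and 43.84, 32.74 and 33.87 M in the WT libraries. All 10 skin-defining markers passed the filter on low counts, with the basal keratin Krt5 at 1971, 1988 and 1809 CPM (counts scaled to the size of the library, the unit of every level given here) in KO skin and 4387, 2561 and 1987 CPM in WT skin. Some libraries stood apart. WT replicate 1 held far more of the wound-type keratins than the other WT libraries (Krt6b at 1658 CPM, against 4.23 and 59.5 CPM), and KO replicate 2 had 1.02% of its counts in Gm42418, a gene that overlaps ribosomal RNA, against 7.21% to 14.1% in the other 5 libraries. Mitochondrially encoded genes took 6.95% to 7.65% of counts in KO skin and 3.58% to 5.27% in WT skin. Skeletal muscle genes summed to 29037 to 35323 CPM in KO skin and 14598 to 23247 CPM in WT skin. Fewer cells of a type and less RNA per cell cannot be told apart in such bulk samples.

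Few genes passed the test. With edgeR's quasi-likelihood test and Benjamini-Hochberg adjustment over 20365 genes, 2 genes were called at an adjusted p under 0.05 (0.00982% of genes tested), and both fell in KO skin: the targeted gene Vsir and Wdfy1. The count was 13 without WT replicate 1, 12 without WT replicate 2, 9 without WT replicate 3 and 2 without any single KO library, and DESeq2 called 572, of which 342 were higher and 230 lower. An unadjusted p under 0.05 was reached by 3219 genes (15.8%). In 2598 genes (12.8%) every KO library lay above every WT library, and in 2376 (11.7%) every KO library lay below. These shares are the background against which the counts for gene groups are read here. With 1 library left out they were 16.1% to 21.4% higher and 14.7% to 21.4% lower. A gene that is separate stays so when a library is left out, so such counts can only hold or grow. After UVB, in libraries other than those compared, 93.4% of the higher set and 92.3% of the lower set had the same KO-over-WT sign. The share over all genes tested was 78%. The titles place those UVB libraries 3 h after exposure and the treatment text 1 day after.

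Vsir (ENSMUSG00000020101, GRCm38 chromosome 10, 60346851 to 60372684, plus strand) was counted at 6.87, 6.50 and 5.07 CPM in KO skin and at 46.1, 34.6 and 34.5 CPM in WT skin. The groups lay far apart, and a remainder of reads was present in every KO library. Its level was 6.14 ± 0.951 CPM in KO skin and 38.4 ± 6.65 CPM in WT skin (SD, n = 3 each), a log2 fold change of −2.64 (SE 0.23, edgeR adjusted p = 0.00047). Counts per gene do not show which exons the remaining reads came from. Vsir lies within Cdh23, a cadherin gene of the opposite strand, and the exons of both share 0 bases in the GENCODE M21 annotation. Cdh23, named here for its position after its values were seen, was at 1.46, 1.22 and 0.897 CPM in KO skin and 0.331, 0.663 and 0.209 CPM in WT skin. Its groups did not overlap, but it was not called by edgeR (log2 fold change 1.58, adjusted p = 0.148), while DESeq2 gave an adjusted p of 0.0199. Within 5 Mb of Vsir 85 genes were tested, 1 was called, Vsir itself, and 25.9% did not overlap between the groups, against 24.4% of all genes.

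Wdfy1 (chromosome 1, 79702262 to 79776143, minus strand) encodes an endosomal FYVE-domain protein that serves as an adaptor in Toll-like receptor signalling. It was at 15.2, 13.9 and 13.1 CPM in KO skin and at 38.3, 46.1 and 49.1 CPM in WT skin. Every KO library was well below the lowest WT library. The level was 14.04 ± 1.06 CPM in KO skin and 44.5 ± 5.54 CPM in WT skin (SD, n = 3 each), a log2 fold change of −1.66 (SE 0.15, edgeR adjusted p = 0.00047), and it was called in all 15 alternative settings. After UVB it was at 27.4, 28.5 and 27.8 CPM in KO skin and at 49.3, 37.6 and 46.2 CPM in WT skin. There the groups still did not overlap, with a smaller difference that was not called (log2 fold change −0.67, edgeR adjusted p = 0.0961). The genotype difference after UVB minus that without UV was 0.99 on the log2 scale (95% interval 0.55 to 1.44, unadjusted p = 0.000337, edgeR adjusted p = 0.9999). In unirradiated cKO against FL skin Wdfy1 had a log2 fold change of −0.39 and was not called; 0 of 19718 genes were called there by edgeR, 928 (4.71%) had an unadjusted p under 0.05, and DESeq2 called 6.

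**Figure D1:**
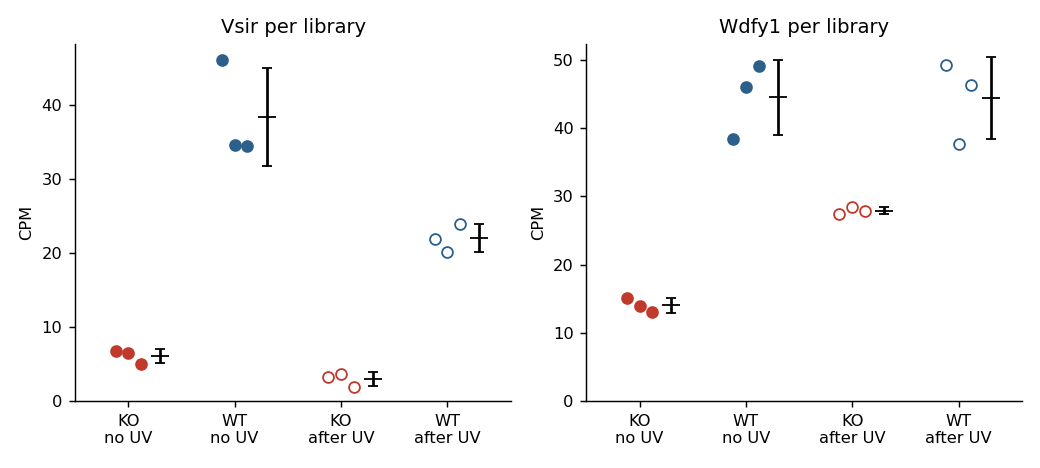
Level of Vsir and Wdfy1 in CPM (y axis) in each library of KO and WT skin without UV (filled points) and after UVB (open points), with the mean and SD beside each group. Vsir in KO libraries without UV sits at 5.07 to 6.87 CPM, below every WT library, and Wdfy1 at 13.1 to 15.2 CPM.

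Wdfy1 stood on a list of genes known as background to differ in copy number or sequence between C57BL/6 stocks. Of its 8 members 5 passed the filter. Ide, which degrades insulin, and its neighbour on chromosome 19, Fgfbp3, a carrier of fibroblast growth factors, are duplicated together in some stocks. Ide was at 820, 840 and 1068 CPM in KO skin and at 453, 470 and 702 CPM in WT skin, and Fgfbp3 at 15.9, 17.3 and 29.3 CPM against 9.67, 8.87 and 9.23 CPM. Both were higher in every KO library and neither was called by edgeR (adjusted p = 0.142 for Ide and 0.122 for Fgfbp3), while DESeq2 called both (adjusted p = 0.0155 and 0.00318). After UVB both again had every KO library above every WT library. Nnt, a mitochondrial transhydrogenase gene with a known deletion in C57BL/6J, was at 0.604, 0.447 and 0.637 CPM in KO skin and 0.463, 0.536 and 0.627 CPM in WT skin, so the groups overlapped. Which stock each genotype came from was not tested.

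None of the genes for proteins known to bind VISTA was called. On the list of VISTA and its partners, with 8 genes, Vsig8 did not pass the filter, and the other 6 partner genes had log2 fold changes from −0.21 for Lrig1, an inhibitor of growth factor receptors, to 0.52 for Igsf11, an adhesion molecule. Lrig1 was at 106, 113 and 107 CPM in KO skin and 127, 120 and 130 CPM in WT skin, without overlap and not called (edgeR adjusted p = 0.65). Selplg, which encodes PSGL-1, was at 10.1, 11.6 and 13.2 CPM in KO skin and 17.3, 6.47 and 9.74 CPM in WT skin, and Lgals9, Sdc2 and Hmgb1 had log2 fold changes of 0.10, 0.33 and 0.18.

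The interferon-inducible GTPases were higher in every KO library. They comprise the guanylate-binding proteins (Gbp genes) and the immunity-related GTPases (Irgm1, Igtp and others), which assemble on vacuoles that hold bacteria or parasites and are induced chiefly by interferon gamma. All 19 listed genes passed the filter, and in 19 of 19 every KO library lay above every WT library, against 12.8% of all genes. Their median log2 fold change was 1.62 in KO over WT skin, and that of all genes −0.01. None was called by edgeR, where the smallest adjusted p was 0.0935, while DESeq2 called 14 of the 18 that it adjusted, against 1.94% of all genes in this direction.

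The promoters of these genes are shown because they share a short motif. The interferon-stimulated response element was searched on both strands as GAAA, any 2 bases and GAAA in the 250 bases before each gene's RefSeq start (GRCm38.p6). It can overlap itself, as it does in Irgm1, and no other motif was marked. It was present in 10 of the 11 GTPase promoters found in the table (90.9%), and in 3.04% of 27025 promoters in all. Among MHC and antigen presentation genes, which include B2m, it was in 3 of 18 promoters (16.7%). A second motif (GAS), searched as TTC, any 3 bases and GAA, was in 6 of the 11 GTPase promoters (54.5%) and 7.18% of all. GAS is not marked below. The last 150 bases before the start follow, 5′ to 3′ on the strand of the gene, with each match in capitals, for Gbp2b (chr3:142594697-142594846, plus strand), Gbp2 (chr3:142620513-142620662, plus strand), Irgm1 (chr11:48871421-48871570, minus strand) and B2m (chr2:122147537-122147686, plus strand), the light chain of MHC class I.
Gbp2b: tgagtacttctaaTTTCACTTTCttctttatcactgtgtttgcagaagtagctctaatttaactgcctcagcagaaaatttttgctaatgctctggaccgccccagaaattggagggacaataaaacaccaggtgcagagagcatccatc
Gbp2: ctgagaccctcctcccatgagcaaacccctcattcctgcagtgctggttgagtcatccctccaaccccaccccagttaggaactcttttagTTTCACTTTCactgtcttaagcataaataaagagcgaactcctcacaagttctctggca
Irgm1: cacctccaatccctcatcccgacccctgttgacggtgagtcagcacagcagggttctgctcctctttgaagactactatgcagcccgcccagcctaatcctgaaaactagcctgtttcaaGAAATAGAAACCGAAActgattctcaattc
B2m: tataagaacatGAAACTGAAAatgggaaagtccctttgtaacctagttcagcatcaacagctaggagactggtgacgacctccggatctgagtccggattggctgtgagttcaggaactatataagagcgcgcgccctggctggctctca
The matches began 137, 59, 30 and 24, and 139 bases before the start of Gbp2b, Gbp2, Irgm1 and B2m. A match describes letters and shows no binding.

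Gbp2b was at 2.31, 9.61 and 3.36 CPM in KO skin and 0.11, 0.41 and 0.328 CPM in WT skin (log2 fold change 4.21, edgeR adjusted p = 0.115). Gbp2, another guanylate-binding protein, was at 68.1, 134 and 106 CPM in KO skin and 26.3, 26.7 and 47.6 CPM in WT skin (log2 fold change 1.61, edgeR adjusted p = 0.161). Irgm1, which governs the other immunity-related GTPases, was at 42.1, 72.9 and 44.4 CPM in KO skin and 23.3, 19.3 and 25.7 CPM in WT skin. In each the groups were separate, and KO replicate 2 was the highest library. Gbp6 and Tgtp1 (log2 fold change 2.78) had the smallest p-values of the list (edgeR adjusted p = 0.0935 and 0.0946), and Gbp3 and Gbp9 the smallest differences (1.05 each). Without KO replicate 2 the list's median was 1.30, and without WT replicate 1 it was 1.57. Several members are close copies of each other, so the reads assigned to single genes are uncertain. After UVB the median was 1.68, with 18 of 19 separate in the same direction, against 12% of all genes. In unirradiated cKO against FL skin the median was 0.10, with 0 of 19 separate, against 1.4% of all genes there.

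**Figure D2:**
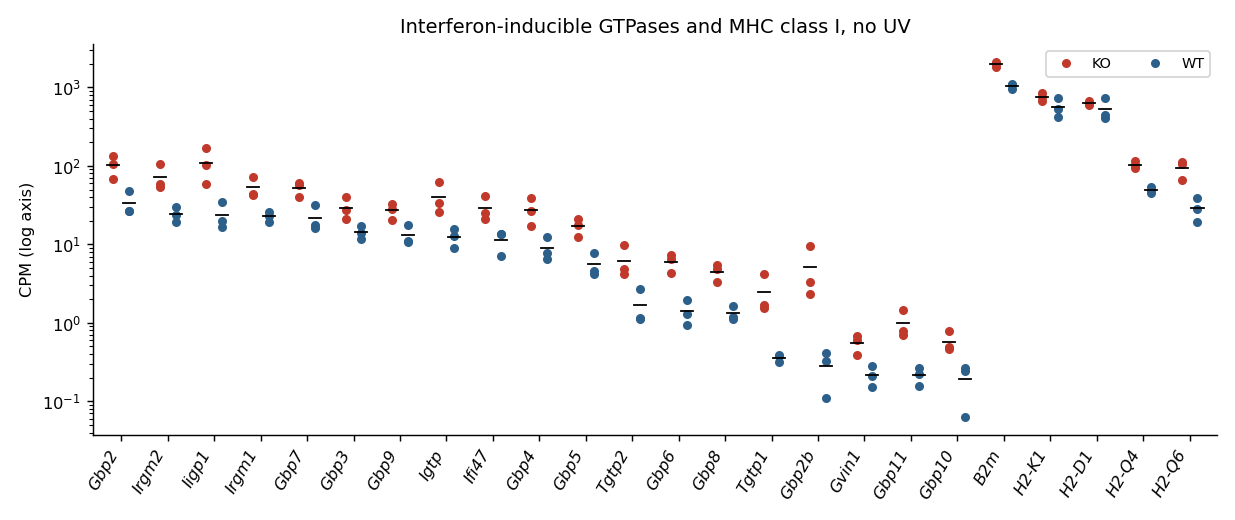
CPM on a log axis of each library for the 19 interferon-inducible GTPases, ordered by WT level, and 5 MHC class I genes, KO left of WT for each gene, with bars at the group means. Gbp2b in KO libraries lies at 2.31 to 9.61 CPM and in WT libraries at 0.11 to 0.41 CPM, and H2-K1 and H2-D1 overlap.

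Antigen presentation genes leaned the same way. B2m was at 1833, 2123 and 2015 CPM in KO skin and 951, 1094 and 1063 CPM in WT skin, so that the lowest KO library was well above the highest WT library (log2 fold change 0.94, edgeR adjusted p = 0.0848). H2-Q4, a class I gene of the Qa region, was at 102, 116 and 93.5 CPM in KO skin and 53.7, 48.1 and 44.8 CPM in WT skin (log2 fold change 1.08, edgeR adjusted p = 0.0788). Its neighbour H2-Q6 had a log2 fold change of 1.73 (edgeR adjusted p = 0.0848), and these near-identical genes may share reads. The classical class I genes differed less, and their groups overlapped: H2-K1 had a log2 fold change of 0.45 and H2-D1 of 0.25. Nlrc5, which activates transcription of class I genes, was at 106.8, 104.96 and 102.41 CPM in KO skin and 63.4, 77.5 and 70.8 CPM in WT skin. Of 23 MHC and antigen presentation genes 11 were separate and higher (47.8%, against 12.8% of all genes) and 0 lower. Of the 23, 22 had a log2 fold change above 0, and the median of the list was 0.51. Leaving out WT replicate 1, in which H2-K1 and H2-D1 were highest of the WT group, made 22 of 23 separate, against 17% of all genes.

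Among 40 type I interferon-stimulated genes, 21 were separate and higher in KO skin (52.5%, against 12.8% of all genes) and 0 lower. The list's median log2 fold change was 0.75. Without WT replicate 1, 33 of 40 were separate and higher, against 17% of all genes. Ifih1, the cytosolic RNA sensor MDA5, was at 54.8, 69.5 and 61.0 CPM in KO skin and 24.9, 35.0 and 40.6 CPM in WT skin (log2 fold change 0.89, edgeR adjusted p = 0.144). Herc6, a ligase that attaches ISG15, had a log2 fold change of 1.07 and Parp9, an ADP-ribosyltransferase family member, of 0.74. Some genes often read as a type I response overlapped. Ifit1 was separate (log2 fold change 1.18, edgeR adjusted p = 0.395), whereas Isg15 (0.68), Mx1 (0.77) and Irf7 (0.29) overlapped, with Irf7 at 11.7, 15.0 and 11.7 CPM in KO skin and 18.4, 3.94 and 8.87 CPM in WT skin. After UVB the list's median was 1.18 with 26 of 40 separate and higher, against 12% of all genes. The PYHIN genes, sensors of DNA next to each other on chromosome 1, were listed after their values were seen. Of 12 tested, 8 were separate and higher (66.7%, against 12.8% of all genes). Their median was 1.01, with for example Ifi204 at a log2 fold change of 0.88.

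Several chemokines that draw T cells were higher in every KO library. Cxcl9, an interferon gamma-induced ligand of CXCR3, was at 12.5, 36.8 and 35.3 CPM in KO skin and 3.86, 4.10 and 8.78 CPM in WT skin (log2 fold change 2.34, edgeR adjusted p = 0.144). Cxcl10, which binds the same receptor, was at 7.69, 15.5 and 17.4 CPM in KO skin and 2.86, 2.46 and 5.79 CPM in WT skin (log2 fold change 1.87), and Ccl5 had a log2 fold change of 1.60. Ccl20, which attracts CCR6-bearing cells, was at 6.18, 9.16 and 9.20 CPM in KO skin and 2.62, 3.98 and 3.73 CPM in WT skin. All 4 were separate. None was called by edgeR, and DESeq2 called Cxcl9 (adjusted p = 0.0377) and Ccl5 (adjusted p = 0.0455). Ccl2 (0.70), Ccl7 (0.65) and Cxcl1 (1.08) overlapped, as did the cytokines Il6 (−0.25), Il1b (−0.51) and Tnf (0.77). Of 27 chemokines tested 6 were separate and higher (22.2%, against 12.8% of all genes) and 0 lower. The 6 were these 4, Ccl22 and Cxcl13, and 3 of the 30 listed did not pass the filter. Of the 27, 5 had a log2 fold change below 0, and all 5 overlapped: Cxcl2 (−2.20), Ccl4 (−1.90), Ccl3 (−1.33), Ccl17 (−0.81) and Cx3cl1 (−0.10). The count of separate and higher chemokines was 14 without KO replicate 1 (51.9%, against 16.2% of all genes). Without WT replicate 1 it was 12 (44.4%, against 17% of all genes).

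Other checkpoint genes lay mostly above 0. Of 24 listed, 22 passed the filter, with 7 separate and higher (31.8%, against 12.8% of all genes) and 0 lower. The list's median log2 fold change was 0.51. Without WT replicate 3, 11 were separate and higher (50%, against 21.4% of all genes) and 1 lower. Cd274, which encodes PD-L1, was at 21.5, 28.2 and 29.6 CPM in KO skin and 16.7, 17.7 and 21.3 CPM in WT skin, so the lowest KO and highest WT library nearly met (log2 fold change 0.51, edgeR adjusted p = 0.358). Havcr2, which encodes TIM-3, was at 10.1, 8.69 and 7.61 CPM in KO skin and 6.17, 5.21 and 4.45 CPM in WT skin. Cd86, the ligand of CD28 and CTLA-4, and Tnfrsf14, the receptor HVEM, had log2 fold changes of 0.62 and 0.64. Pdcd1, the gene of PD-1, was under the filter.

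Markers of immune cell types differed in direction. The T cell receptor alpha constant gene Trac was at 6.62, 6.10 and 4.86 CPM in KO skin and 1.56, 1.61 and 3.25 CPM in WT skin (log2 fold change 1.45, edgeR adjusted p = 0.137). The adhesion receptor Cd2, carried by T and natural killer cells, was at 5.99, 6.85 and 5.21 CPM in KO skin and 2.25, 2.87 and 3.17 CPM in WT skin. Cd8a had a log2 fold change of 1.97 and was called in 0 of 15 alternative settings. All 22 T cell genes passed the filter, 8 were separate and higher (36.4%, against 12.8% of all genes) and 0 lower. Of the 22, 18 had a log2 fold change above 0 and 4 below 0, the lowest at −0.38. Without WT replicate 3 these counts were 14 (63.6%) and 1 (4.55%), against 21.4% of all genes each way. The sums of the T cell genes overlapped, at 244 to 259 CPM in KO skin and 224 to 256 CPM in WT skin. For dendritic and Langerhans cells, Xcr1, the receptor of cross-presenting dendritic cells, was at 4.42, 5.09 and 3.62 CPM in KO skin and 1.17, 1.64 and 1.70 CPM in WT skin (log2 fold change 1.54, edgeR adjusted p = 0.13). Cd207, the Langerhans cell lectin langerin, was at 31.6, 29.5 and 16.6 CPM in KO skin and 10.9, 15.5 and 11.2 CPM in WT skin, with KO replicate 3 close to the WT group. Of the 15 genes of this list 6 were separate and higher (40%, against 12.8% of all genes) and 0 lower. The list's median log2 fold change was 0.33. It was above 0 in 13 genes and below 0 in Fscn1 (−1.15) and Siglech (−0.71), which overlapped. Neutrophil genes lay the other way: 6 of 13 passed the filter, all 6 had a log2 fold change below 0 and their median was −1.73, or −0.69 without WT replicate 1. None of them was separate, against 24.4% of all genes. Without WT replicate 2, 5 were separate and lower (83.3%, against 17.3% of all genes). Without KO replicate 3, 4 were separate and lower (66.7%, against 16.4% of all genes). The 12 mast cell genes had a median of −0.01 with 0 separate, against 24.4% of all genes.

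Markers of resident macrophages were partly higher. Timd4, a phosphatidylserine receptor of long-lived macrophages, was at 6.15, 6.004 and 3.30 CPM in KO skin and 1.498, 1.55 and 0.866 CPM in WT skin (log2 fold change 1.98, edgeR adjusted p = 0.0917). Lyve1, a hyaluronan receptor of lymphatic vessels and of a macrophage subset, was at 68.4, 59.9 and 34.1 CPM in KO skin and 27.3, 15.3 and 14.04 CPM in WT skin (log2 fold change 1.52, edgeR adjusted p = 0.0917). Both groups were separate in each gene. Lyve1 was counted on the endothelial list, not on the macrophage list. Mgl2, a lectin of dermal macrophages and dendritic cells, had a log2 fold change of 0.85. Of 20 macrophage genes 6 were separate and higher (30%, against 12.8% of all genes) and 0 lower, with a median of 0.42. The number higher was 12 without KO replicate 1 (60%, against 16.2% of all genes). Without WT replicate 3 it was 11 (55%, against 21.4% of all genes). A log2 fold change below 0 was found in 4 of the 20: Stab1 (−0.64), Clec4n (−0.45), Cd68 (−0.13) and Csf1r (−0.04). After UVB, 9 genes were called between KO and WT skin (0.0442% of those tested): Timd4, Lyve1, the scavenger receptor Msr1, Mmd2, mt-Nd3, Ngfr, Mettl7a1 and Gm20559 rose and Vsir fell. That count was 2 without KO_UV replicate 2, KO_UV replicate 3 or WT_UV replicate 2, and 19 without WT_UV replicate 3. Msr1 overlapped without UV, at 10.9, 13.7 and 14.6 CPM in KO skin and 11.9, 5.93 and 11.3 CPM in WT skin. The test of the genotype difference after UVB minus without UV called 0 of 20365 genes by edgeR and 0 by DESeq2, and 313 had an unadjusted p under 0.05.

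Genes of cell division were lower in KO skin. Cdk1, the kinase that drives mitosis, was at 17.6, 20.5 and 18.0 CPM in KO skin and 46.8, 35.8 and 26.4 CPM in WT skin (log2 fold change −0.96, edgeR adjusted p = 0.14). Mcm5, a subunit of the replicative helicase, was at 15.5, 20.2 and 15.9 CPM in KO skin and 61.1, 32.9 and 26.8 CPM in WT skin (log2 fold change −1.23, edgeR adjusted p = 0.122). The KO libraries lay close together in both, and WT replicate 1 was the highest. Mki67, the proliferation antigen, was at 184, 197 and 193 CPM in KO skin and 279, 300 and 315 CPM in WT skin, where WT replicate 1 was the lowest of its group. Of 25 cell cycle genes, 24 were separate and lower, against 11.7% of all genes, and all 25 had a log2 fold change below 0, with a median of −0.88. None was called by edgeR, and DESeq2 called 13 of 25, against 1.31% of all genes in this direction. Without WT replicate 1 the median was −0.64 and 25 of 25 were separate, against 16.2% of all genes. After UVB the median was −0.80 with 16 of 25 separate and lower, against 10.2% of all genes. In unirradiated cKO against FL skin, where Vsir was not called (log2 fold change 0.41), the median was −0.73 with 0 of 25 separate, against 0.791% of all genes there.

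A CCAAT box and a cell cycle homology region, which known cell cycle promoters can hold, were searched as CCAAT and TTTGAA on both strands in the same 250 bases. CCAAT was present in 17 of the 21 cell cycle promoters found (81%) and in 34.5% of all, and TTTGAA in 7 of 21 (33.3%) and in 16.3% of all. In other lists, TTTGAA was in 5 of the 11 GTPase promoters (45.5%) and CCAAT in 15 of 18 MHC promoters (83.3%). Where they meet, both motifs can share a T. The last 150 bases before the start are shown for Cdk1 (chr10:69352913-69353062, minus strand) with TTTGAA in capitals and for Mcm5 (chr8:75109359-75109508, plus strand) with CCAAT in capitals.
Cdk1: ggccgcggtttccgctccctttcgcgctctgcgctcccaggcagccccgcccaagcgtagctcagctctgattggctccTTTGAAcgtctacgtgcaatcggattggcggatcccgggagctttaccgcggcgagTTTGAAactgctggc
Mcm5: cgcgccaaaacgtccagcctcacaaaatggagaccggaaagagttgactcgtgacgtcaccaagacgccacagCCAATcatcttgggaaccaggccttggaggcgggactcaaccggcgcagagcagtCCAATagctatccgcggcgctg
The matches began 71 and 15 bases before the start of Cdk1 and 77 and 22 before that of Mcm5. No factor's binding was measured.

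**Figure D3:**
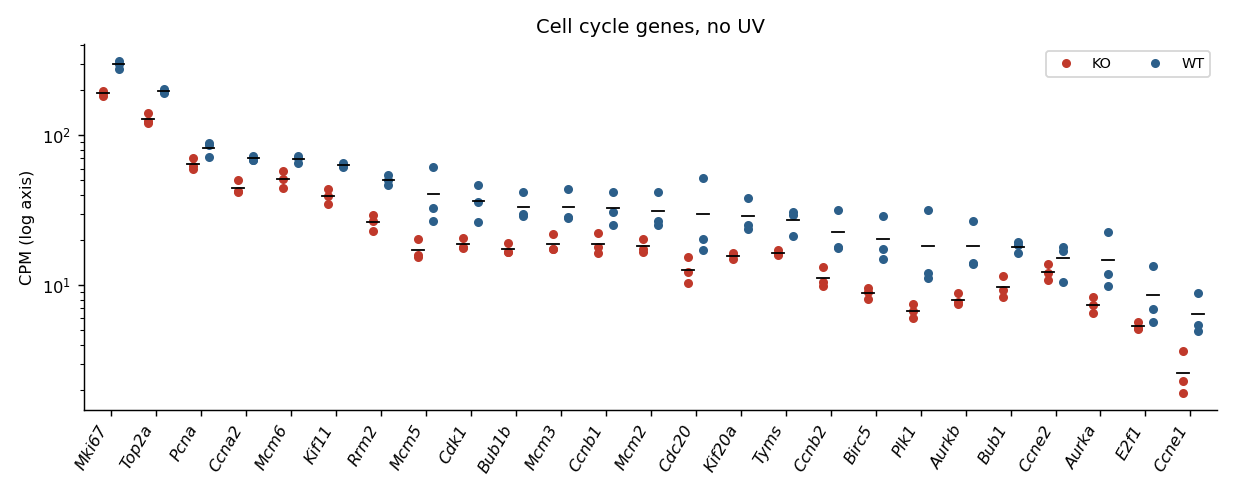
CPM on a log axis of each library for the 25 cell cycle genes, ordered by WT level, KO left of WT for each gene, with bars at the group means. Mki67 lies at 184 to 197 CPM in KO libraries and 279 to 315 CPM in WT libraries, and 24 of the 25 genes have every KO point below every WT point.

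Genes of the differentiating epidermis were also lower. Krt1, the keratin of the suprabasal layers, was at 1710, 2152 and 3299 CPM in KO skin and 9989, 4984 and 7365 CPM in WT skin (log2 fold change −1.64, edgeR adjusted p = 0.107). Lor, the main protein of the cornified envelope, was at 268, 279 and 276 CPM in KO skin and 828, 463 and 464 CPM in WT skin, and Tgm3, a transglutaminase that crosslinks it, was at 3.87, 6.71 and 8.83 CPM in KO skin and 66.6, 20.7 and 28.8 CPM in WT skin (log2 fold change −2.58, edgeR adjusted p = 0.0935). In all 3 the groups were separate. Of 26 suprabasal and barrier genes 15 were separate and lower (57.7%, against 11.7% of all genes) and 0 higher. The list's median log2 fold change was −0.67. Without WT replicate 1 it was −0.53, with 19 separate and lower (73.1%, against 16.2% of all genes). Klk5, a protease of shedding, had a log2 fold change of −1.02 and Krt10, the partner of Krt1, of −0.75. Of 20 late cornified envelope genes 18 passed the filter, and 13 were separate and lower (72.2%, against 11.7% of all genes). The list's median was −1.51, with for example Lce1d (−1.28), Lce1i (−1.57) and Lce1j (−1.42). These are near-identical copies on chromosome 3 whose counts are uncertain one by one. In unirradiated cKO against FL skin the median was −0.40 for the suprabasal and barrier list and −0.87 for the late cornified envelope list. There 0 of 26 and 0 of 18 were separate, against 0.791% lower of all genes.

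The stress keratins varied widely among the WT libraries. Krt16 was at 21.7, 44.2 and 59.6 CPM in KO skin and 1590, 27.8 and 101 CPM in WT skin, and Krt6b at 2.66, 6.22 and 7.96 CPM in KO skin and 1658, 4.23 and 59.5 CPM in WT skin. WT replicate 1 was far above all others, and the groups overlapped. The list's median log2 fold change was −1.87, and −0.98 without that library. Of its 20 tested genes 3 were separate and lower (15%, against 11.7% of all genes): Stfa1, Sprr1b and Defb14. That count was 16 without WT replicate 2 (80%, against 17.3% of all genes) and 9 without KO replicate 3 (45%, against 16.4%). In unirradiated cKO against FL skin the list's median was −1.29, with 1 of 20 separate and lower, against 0.791% of all genes there. Basal keratin Krt14 stood at 1044, 1079 and 1079 CPM in KO skin and 6036, 1627 and 1247 CPM in WT skin. Its groups were separate, with WT replicate 1 again the highest. Its log2 fold change was −1.48, and −0.43 without WT replicate 1. Of 18 basal keratinocyte genes 2 were separate and lower (11.1%, against 11.7% of all genes) and 1 higher (5.56%, against 12.8%). Their median was −0.07. Without WT replicate 3, 7 were lower (38.9%, against 21.4% of all genes). S100a9, an alarmin of neutrophils and stressed keratinocytes, had a log2 fold change of −1.96, and of −0.65 without WT replicate 1.

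**Figure D4:**
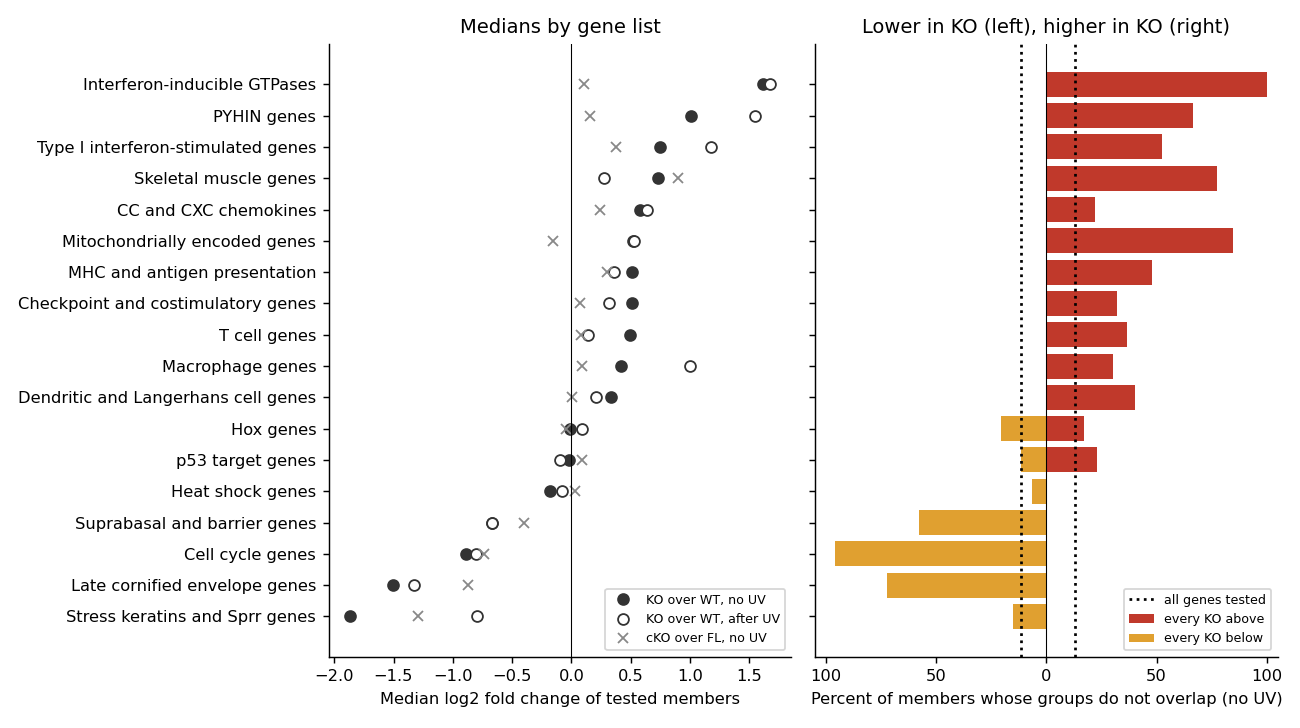
Left, median log2 fold change of the tested members of 18 gene lists for KO over WT without UV (filled), KO over WT after UVB (open) and cKO over FL without UV (crosses). Right, percent of members whose KO and WT libraries do not overlap without UV, lower to the left and higher to the right, with the shares over all genes (11.7% and 12.8%) as dotted lines. The GTPases reach 100% higher and the cell cycle genes 96% lower.

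Genes that respond to steroid hormones formed another group, listed after their values were seen. Pgr, the progesterone receptor, was at 13.04, 18.3 and 16.9 CPM in KO skin and 2.14, 1.17 and 1.34 CPM in WT skin (log2 fold change 3.36, edgeR adjusted p = 0.0788). Greb1, an estrogen-induced cofactor of the estrogen receptor, was at 13.6, 9.77 and 8.34 CPM in KO skin and 3.24, 1.36 and 1.16 CPM in WT skin (log2 fold change 2.44, edgeR adjusted p = 0.0788). Oxtr, the oxytocin receptor, was at 63.7, 76.3 and 72.3 CPM in KO skin and 19.7, 23.7 and 13.8 CPM in WT skin (log2 fold change 1.90, edgeR adjusted p = 0.0848). In each the lowest KO library was over the highest WT library. The aldo-keto reductases Akr1cl and Akr1c14, of a family that converts steroids, had log2 fold changes of 2.64 and 2.07. Of the 23 genes listed 19 passed the filter, and 9 were separate and higher (47.4%, against 12.8% of all genes). Another 4 were separate and lower (Wnt4, Hsd17b2, Srd5a1 and Esr2), which is 21.1% against 11.7% of all genes. The list's median was 0.34. Esr1, the estrogen receptor, overlapped, at 48.3, 63.0 and 49.4 CPM in KO skin and 31.0, 60.7 and 34.3 CPM in WT skin. After UVB Pgr had a log2 fold change of 2.90, Greb1 of 2.13 and Oxtr of 1.58, each separate and not called by edgeR. In cKO against FL skin without UV, Pgr had −2.20 and Greb1 −1.07. The stage of the estrous cycle is not given in the labels, and its part was not tested.

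**Figure D5:**
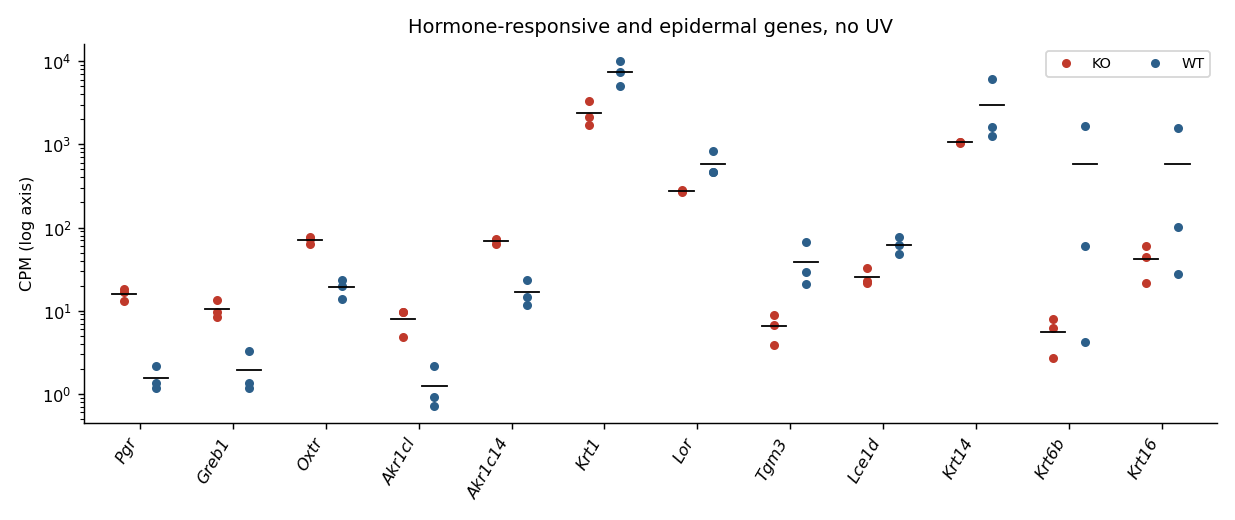
CPM on a log axis of each library for 5 hormone-responsive and 7 epidermal genes, KO left of WT for each gene, with bars at the group means. Pgr lies at 13.04 to 18.3 CPM in KO libraries and 1.17 to 2.14 CPM in WT libraries, and Krt6b and Krt16 are highest in WT replicate 1.

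Skeletal muscle and mitochondrial transcripts were higher in KO skin without UV. The fast myosin Myh1 was at 1315, 1085 and 1133 CPM in KO skin and 534, 513 and 555 CPM in WT skin (log2 fold change 1.14, edgeR adjusted p = 0.122), and Myh2 had a log2 fold change of 0.96. All 22 muscle genes had a log2 fold change above 0, and 17 were separate and higher (77.3%, against 12.8% of all genes). The median was 0.73. After UVB 0 of 22 were separate, against 12% higher and 10.2% lower of all genes, with a median of 0.27. In unirradiated cKO against FL skin the muscle median was 0.90 with 0 of 22 separate, against 1.4% higher of all genes there. Of 13 mitochondrially encoded genes 11 were separate and higher (84.6%, against 12.8% of all genes). The median was 0.52, and 0.31 without WT replicate 1. After UVB the mitochondrial list still had 9 of 13 separate and higher, against 12% of all genes, with a median of 0.52. Its median in unirradiated cKO against FL skin was −0.16. The subunit gene of complex I mt-Nd3 was at 3.84, 3.41 and 4.98 CPM in KO skin and 0.749, 1.23 and 1.16 CPM in WT skin (log2 fold change 1.97, edgeR adjusted p = 0.0788). Whether the groups' other differences move with tissue composition was not tested further.

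Groups of stress and body position had genes in both directions or few separate. Of 26 p53 target genes 6 were separate and higher (23.1%, against 12.8% of all genes) and 3 lower (11.5%, against 11.7%). Their median log2 fold change was −0.02. Without KO replicate 1, 9 were higher (34.6%, against 16.2% of all genes). Without WT replicate 3, 6 were lower (23.1%, against 21.4% of all genes). Cdkn1a, the p53-induced inhibitor of cell division, was at 164, 140 and 106 CPM in KO skin and 217, 160 and 122 CPM in WT skin. Heat shock genes had a median of −0.18 with 1 of 15 separate and lower (6.67%, against 11.7% of all genes). Without WT replicate 3, 6 heat shock genes were lower (40%, against 21.4% of all genes). Circadian clock genes had a median of 0.06 with 1 of 18 separate and higher (5.56%, against 12.8% of all genes). Without KO replicate 3, 5 clock genes were higher (27.8%, against 17.9% of all genes) and 1 lower. Of 21 glucocorticoid and fasting genes 5 were separate and higher (23.8%, against 12.8% of all genes) and 0 lower, with a median of 0.12. The 5 were Pdk4, Fbxo32, Trim63, Zbtb16 and Txnip. Without KO replicate 3, 8 were higher (38.1%, against 17.9% of all genes). Without WT replicate 3, 4 were lower (19%, against 21.4% of all genes). Pdk4, a kinase that slows glucose oxidation, had a log2 fold change of 2.66 (edgeR adjusted p = 0.13). DESeq2 called 3 of the 21, all higher (14.3%, against 1.94% of all genes in this direction). The Hox genes, which record position along the body, had 5 of 29 separate and higher (17.2%, against 12.8% of all genes) and 6 lower (20.7%, against 11.7%). Without WT replicate 3, 8 were higher (27.6%) and 9 lower (31%), against 21.4% of all genes each way. Hoxa10, of posterior skin, had a log2 fold change of 1.19, and Hoxb8, of the trunk, of −1.25. Neither was called by edgeR (adjusted p = 0.14 each), and DESeq2 called both (adjusted p = 0.0122 and 0.00669).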

How the data were processed

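Total RNA from skin was depleted of ribosomal RNA and sequenced as stranded, paired reads, per the labels' protocols. The submitters' processing notes name cutadapt 4.6, HISAT2 2.1.0 and featureCounts of Subread as tools and GRCm38 as the build. The strand and multimapping settings of counting are not given in the sources used here. The authors deposited raw counts per gene, and 0 sample columns were left unused.

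Counts were tested with edgeR 4.0.16 (R 4.3.3, limma 3.58.1) by its quasi-likelihood test with TMM scaling, after the default filter on low counts, fitted on the 12 whole-body libraries with 1 coefficient per group. Adjusted p-values are Benjamini-Hochberg values for the whole table, called under 0.05. DESeq2 1.42.0 was an alternative, as were other scaling, filtering, samples in the fit, a replicate block and leaving out each library. cKO and FL libraries were fitted apart. CPM are counts scaled to TMM-adjusted library size. A gene is called separate where every KO library lies on 1 side of every WT library. The lowest level that 3 counts allow was 0.0684 to 0.0916 CPM per library, which covers counting error only. With 3 against 3 libraries an exact permutation test cannot go below p = 0.1, so none was used. Scripts were tested on simulated data.

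Named genes were Vsir, all called genes, up to 3 genes per list with the smallest p, the VISTA list and a fixed set of cytokine and interferon genes. Further genes, and the hormone and PYHIN lists, were named after their values were seen. All members and lists were chosen with earlier results of these data known. Same-numbered KO and WT libraries had correlations of −0.0853, 0.11 and 0.239 in their deviations from the group means. Those with different numbers had −0.252 to 0.174. With 3 libraries a side these values cannot decide whether the numbers pair samples, and the main test used no pairing. Of 55394 genes matched to GENCODE M21, 99.68% had the same position. Promoters came from a RefSeq table on GRCm38.p6.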

Additional observations from a re-analysis of the deposited data

Results flagged for a closer look

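Vsir in unirradiated FL skin had 1 library apart from the other 3. It was at 38.54 CPM, against 19.4, 22.5 and 20.8 CPM. Unirradiated cKO skin was at 16.997, 35.1, 38.3 and 45.0 CPM, so the groups overlapped. A gap of this size is met by chance in about 1 in 20 groups of 4.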

How the results depend on the processing

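Vsir (log2 fold change −2.73 to −2.49) and Wdfy1 (−1.76 to −1.57) were called in all 15 alternatives. The number of genes called between KO and WT skin without UV was 2, but 572 with DESeq2, 6 with limma voom, 185 with no filter on low counts, 4 with only the libraries compared, and 2 to 13 when 1 library was left out. The replicate block gave 22. After UVB the number was 9, but 434 with DESeq2, 162 with no filter, 31 with the replicate block and 2 to 19 when 1 library was left out. Between cKO and FL skin it was 0 (928 at an unadjusted p under 0.05), but 6 with DESeq2, 1 with no filter and 1 with the replicate block. The cause was not tested. The limma voom, legacy, Gm42418 and muscle alternatives were chosen after seeing the data. Leaving out 1 library turned the sign of 7 genes that were never called, with log2 fold changes of −0.185 to 1.62 for Cxcl1, −0.832 to 0.0402 for Il1b, −1.78 to 0.258 for Il6, −0.085 to 0.997 for Irf7, −0.0457 to 0.336 for Lgals9, −0.0542 to 0.199 for Nnt and −0.214 to 0.516 for Selplg. Medians of the GTPases ranged over 1.30 to 1.96 and of the cell cycle genes over −0.945 to −0.637.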

Other observations

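Complement genes, whose products tag cells for clearance, had 6 of 16 members higher in every KO library (37.5%, against 12.8% of all genes). They had 0 lower and a median log2 fold change of 0.41. The 6 were C3 (1.00), the central component, C2, C4b, C1s1, C1ra and the receptor C5ar1, and none was called by edgeR or DESeq2. Without WT replicate 1, 10 of 16 were separate and higher (62.5%, against 17% of all genes). Of 19 endothelial genes 7 were separate and higher (36.8%, against 12.8% of all genes), with a median of 0.20. Among the 7 were Lyve1 (1.52) and the leukocyte adhesion molecules Vcam1 (0.84) and Icam1 (0.51).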
